A study of Rattus norvegicus with 12 samples.

Results

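Regulators of G protein signaling (RGS proteins) were followed through 4 neuron populations of the rat brain. The members are the genes *Rgs2*, *Rgs4*, *Rgs5*, *Rgs7*, *Rgs8*, *Rgs9*, *Rgs10*, *Rgs12* and *Rgs14*. They were chosen by name, with earlier results of these data known. All 9 genes were on the array, out of 10411 genes with a symbol of their own, and they had 11 of the 15866 probe sets that are not controls. *Rgs2* and *Rgs4* had 2 probe sets each. The neurons came from rats of the Fisher 344/BN F1 hybrid, 6 months old, which had received no treatment. They were captured by laser from stained cryosections and their RNA was amplified in a two-cycle reaction before hybridization to Affymetrix RAE230A arrays. Each region has 3 arrays, labelled as biological replicates. Arrays of equal replicate number are taken here as 1 rat, which the labels do not state. Hippocampal CA1 pyramidal neurons and cerebellar granule (CbG) neurons form the group that the study calls vulnerable to oxidative stress (VUL). Hippocampal CA3 neurons and neurons of the deeper layers of the frontal cortex (CTX) form the resistant group (RES). Oxidative stress was not applied to these rats, so the comparison is one of basal expression.

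A receptor that couples to a heterotrimeric G protein loads its alpha subunit with GTP, and the alpha and beta-gamma subunits then act on effectors such as phospholipase C and potassium channels. RGS proteins bind the active alpha subunit and speed up its GTP hydrolysis, which ends the signal. In the brain the family is known for members with sharply different regional patterns. *Rgs2*, *Rgs4*, *Rgs5* and *Rgs8* encode small proteins of the R4 group, *Rgs7* and *Rgs9* encode R7 proteins that pair with the beta subunit encoded by *Gnb5*, and *Rgs10*, *Rgs12* and *Rgs14* belong to the R12 group.

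Signals are MAS5 intensities without a unit, scaled by array, and array medians lay between 145.5 and 199.3. A pair of arrays went against their labels, and results are therefore given under 3 arrangements. The array labelled CA3 replicate 3 correlated best over all probe sets with CbG replicate 1 (r = 0.932), and that labelled CbG replicate 3 with CA3 replicate 1 (r = 0.933). The 6 granule cell markers on the array reached a sum of 27491 in that labelled CA3 replicate 3, within the 24375 to 28145 of the other CbG arrays and far above the 1780 and 1792 of the other CA3 arrays. In the array labelled CbG replicate 3 they summed to 1931. All 3 pyramidal cell markers summed to 1095 in the array labelled CA3 replicate 3, and to 11258 in that labelled CbG replicate 3. In the latter the CA3 markers summed to 2726, within the 2469 to 3090 of the other CA3 arrays. Its CA1 markers summed to 7373, above the 702 to 1877 of those CA3 arrays and below the 27793 to 35331 of CA1. Exchanged, it thus counts as CA3 with more CA1 marker signal than the other CA3 arrays. Unless stated otherwise, tests rest on the 10 other arrays, with CbG and CA3 at n = 2 and CA1 and CTX at n = 3. The 12 arrays as labelled and the 12 arrays with these 2 labels exchanged stand beside them.

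The captures held other cell types as well. The 5 Purkinje cell markers summed to 15789 and 37256 in the CbG arrays, to 2607 in the doubtful CA3 array, and to between 3809 and 8630 in the other regions. Oligodendrocyte markers (4 on the array) summed to between 18622 and 30206 in CTX, and to 14962 or less in every other array. *Tbr1*, the only marker of deep cortical layers on the array, gave 29.3, 11.2 and 46.7 in CTX, below the array median, so that the captured layers could not be checked. In tissue of this kind, fewer cells of a type and less RNA per cell cannot be told apart.

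A signal above the median of its array in at least 7 of 10 arrays (8 of 12) was needed for testing. Of the 11 member probe sets, 5 met this over the 10 arrays (*Rgs2* 1387074_at, *Rgs4* 1368505_at, *Rgs7*, *Rgs10* and *Rgs14*), among 7451 probe sets in all. The other 6 did not meet it and were tested in a fit of all 15866 probe sets without this filter. A probe set was called at a Benjamini-Hochberg adjusted p under 0.05 in limma and a difference of at least 1.5-fold.

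**Figure D1:**
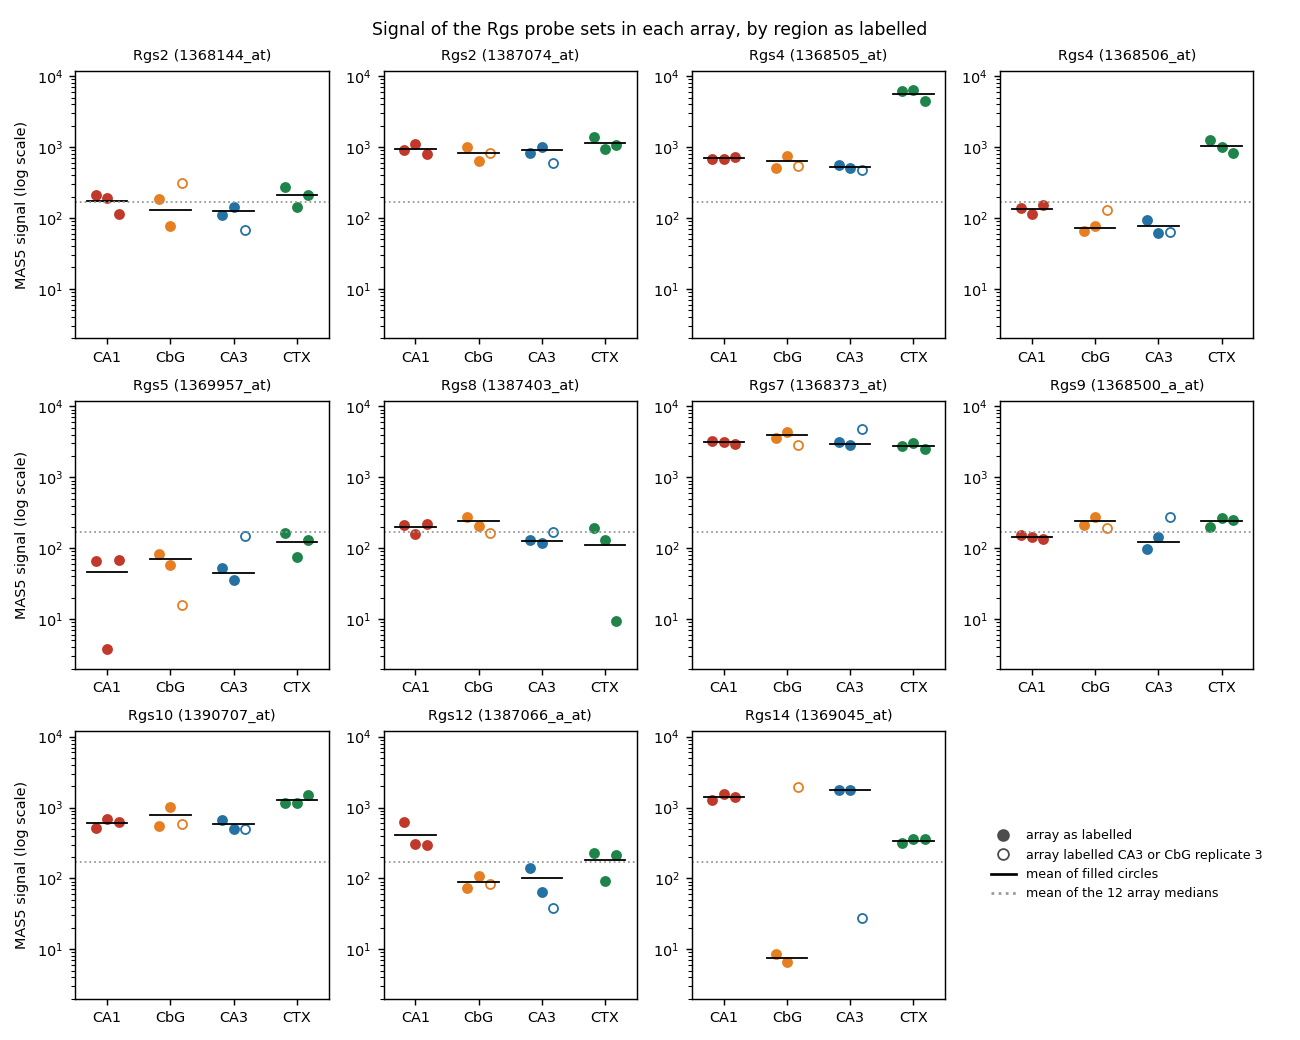
MAS5 signal (log scale) of each member probe set in each array, by labelled region, with CA1 and CbG (VUL) left of CA3 and CTX (RES). Open circles mark replicate 3 of CA3 and of CbG, as labelled, horizontal bars are the means of the filled circles and dotted lines the mean of the 12 array medians. Both *Rgs4* probe sets stand apart in CTX, and *Rgs14* is at 8.5 and 6.5 in the filled CbG circles.

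Of the R4 group, *Rgs4* carried the difference that depended least on the array labels. *Rgs4*, a regulator of Gi/o and Gq signaling that is abundant in neocortical neurons, lies next to *Rgs5* on chromosome 13, where 5 of the 9 members are located. The 250 bases before the start sites of *Rgs4* and *Rgs5* are shown because the genes are neighbours and differences between regions were called for *Rgs4* only, with the *Rgs14* promoter added because that gene separated the regions most. The sequences are from RefSeq on the GRCr8 assembly, in which all 9 members were found. Capitals mark TATAAA and CCAAT, on either strand (ATTGG on the printed one).
Rgs4, chr13:84475885-84476134, minus strand: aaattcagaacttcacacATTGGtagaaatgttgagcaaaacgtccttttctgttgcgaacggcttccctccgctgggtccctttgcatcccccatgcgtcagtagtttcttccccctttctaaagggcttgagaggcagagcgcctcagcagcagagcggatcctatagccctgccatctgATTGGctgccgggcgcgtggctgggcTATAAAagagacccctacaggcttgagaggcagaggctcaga
Rgs5, chr13:84380827-84381076, plus strand: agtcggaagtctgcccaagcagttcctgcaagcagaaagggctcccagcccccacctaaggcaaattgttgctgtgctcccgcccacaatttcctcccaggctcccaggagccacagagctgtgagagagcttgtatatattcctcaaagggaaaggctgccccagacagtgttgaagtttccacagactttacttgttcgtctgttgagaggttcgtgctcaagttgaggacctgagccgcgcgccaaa
Rgs14, chr17:9268234-9268483, minus strand: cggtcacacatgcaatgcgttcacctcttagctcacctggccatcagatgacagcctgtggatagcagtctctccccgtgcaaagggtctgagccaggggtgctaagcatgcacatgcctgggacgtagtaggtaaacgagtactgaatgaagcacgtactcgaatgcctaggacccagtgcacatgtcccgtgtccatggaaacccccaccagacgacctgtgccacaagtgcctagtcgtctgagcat

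The *Rgs4* window held TATAAA with its first base 42 bases before the start, and CCAAT at 232 and 68 bases before it. It was the only member of the 9 with TATAAA, which was found in 13.1% of 27457 rat promoter windows of this length. CCAAT was present in 4 members and in 34.3% of all windows. GGGCGG and TGACG were also searched on both strands. The first was present in 6 members and 32.4% of windows, and TGACG in 2 members and 19.0% of windows. The *Rgs4* window also held TGACG once, the *Rgs5* window GGGCGG once and the *Rgs14* window none of the 4 motifs. The matches in *Rgs4* did not overlap one another. They are matches of letters and no test of binding.

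*Rgs4* was high in cortical neurons, with a mean 8.26-fold that of CA1, the next region. Probe set 1368505_at gave 672.2, 674 and 726.2 in CA1, and 505.5 and 756.4 in CbG, with 533 in the array labelled CbG replicate 3. In CA3 it gave 551.5 and 506.9, with 479 in the array labelled CA3 replicate 3. Signals in CTX were 6161.1, 6492.4 and 4458.5, so the lowest CTX array lay far above every array of the other regions, whichever way the 2 arrays are labelled. The mean was 691 ± 30.7 in CA1 and 5704 ± 1091 in CTX (SD, n = 3 each).

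The second probe set of *Rgs4*, 1368506_at, also stood out in CTX. It gave 139.2, 113.4 and 150.4 in CA1, 65.8 and 77.3 in CbG, 92.4 and 60.5 in CA3 and 1256.8, 1011.5 and 829.9 in CTX. The arrays labelled CbG replicate 3 and CA3 replicate 3 gave 127.9 and 63.7. Outside CTX it was above the array median in 1 array only, CA1 replicate 3, where the median was 147.7. Over the 12 arrays the 2 probe sets correlated at r = 0.97 on the log2 scale.

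CbG minus CTX, the pair of regions with the larger *Rgs4* difference, was -3.11 ± 0.27 on the log2 scale for 1368505_at (8.66-fold lower, limma adjusted p = 6.2e-06). CA1 minus CTX was -2.71 ± 0.23 (adjusted p = 8.4e-06) and CA3 minus CTX -3.11 ± 0.27 (adjusted p = 2.1e-05). These 3 differences were called over the 10 arrays, over the 12 arrays as labelled and with the labels exchanged. CA1 minus CA3 went the other way at 0.40 ± 0.27 and did not pass (adjusted p = 0.40). CA1 minus CbG was 0.40 ± 0.27 (adjusted p = 0.26) and CA3 minus CbG had an adjusted p of 0.996, so none of the differences among the 3 regions below CTX passed. With the unfiltered fit, 1368506_at was called in the same contrasts, at -3.73 ± 0.34 for CbG minus CTX (adjusted p = 0.0062).

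Of the resistant regions only CTX was high, and the VUL minus RES difference of *Rgs4* was smaller, -1.36 ± 0.18 (2.56-fold lower, adjusted p = 0.00028), and -1.46 ± 0.23 for 1368506_at without the filter (adjusted p = 0.035). This call was lost over the 12 arrays as labelled (-1.34 ± 0.17, adjusted p = 0.069) and held with the labels exchanged (-1.38 ± 0.15, adjusted p = 2.6e-05). For 1368506_at it was also lost on leaving out any 1 of the 10 arrays, at adjusted p between 0.068 and 0.12. Within a rat the direction held in 2 of 4 pairs, CbG with CTX but not CA1 with CA3. An exact two-sided permutation of VUL and RES within rats, which takes the 2 regions of a group as alike, gave p = 0.21 as labelled and 0.19 exchanged over 216 arrangements. The test of the difference between the pairs, CA1 minus CA3 less CbG minus CTX, gave 3.51 ± 0.40 (adjusted p = 9.2e-05). It was called under all 3 arrangements.

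The oligodendrocyte markers, summed above, were likewise highest in CTX, and the endothelial markers (4 on the array) summed to between 1009 and 1653 there, against 1016 in the array labelled CA3 replicate 3 and 924.6 or less in the rest. Their part in the *Rgs4* difference was not tested.

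*Rgs2*, whose product acts chiefly on Gq and whose expression follows neuronal activity, showed no such separation. Probe set 1387074_at gave 910.7, 1104.4 and 797.7 in CA1, 987.4 and 642.8 in CbG, 834.8 and 995.5 in CA3 and 1409.8, 943.1 and 1059.1 in CTX. Of the 2 doubtful arrays, that labelled CbG gave 835 and that labelled CA3 gave 592.3. The ranges of all 4 regions overlapped, and the ratio of the highest to the lowest region mean was 1.40. VUL minus RES was -0.19 ± 0.17 (adjusted p = 0.45) and CbG minus CTX -0.43 ± 0.25 (adjusted p = 0.23). In none of the 8 contrasts was it called under any of the 3 arrangements, the smallest adjusted p being 0.16 over the 10 arrays and 0.062 with the labels exchanged. Its second probe set, 1368144_at, ranged from 66.8 to 312.2 and was likewise called in none, with a smallest adjusted p of 0.29 over the 10 arrays and 0.20 with the labels exchanged.

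*Rgs5*, best known from pericytes and smooth muscle of vessels, was near the floor of these arrays. Its signals were 66.2, 3.8 and 68 in CA1, 81.6 and 58.2 in CbG, 53.3 and 35.7 in CA3 and 162.5, 74.7 and 132.1 in CTX. The array labelled CbG replicate 3 gave 15.7 and that labelled CA3 replicate 3 gave 146.9. It was above the array median in 0 of 12 arrays. CTX ranked first by mean, but its range overlapped with that of CbG, and CA1 minus CTX, the largest difference, was -1.87 ± 0.85 without the filter (adjusted p = 0.22). VUL minus RES was -0.72 ± 0.67 (adjusted p = 0.59). No contrast was called under any of the 3 arrangements. The 7 mural cell markers were low throughout, their sum ranging from 311.8 to 415.6 in CA1, from 322.6 to 578.4 in CbG, from 209.2 to 297.2 in CA3 and from 509.7 to 734.8 in CTX. *Pdgfrb*, a defining marker of pericytes, did not exceed 61.7 in any array.

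*Rgs8*, which regulates Gi/o and is known from Purkinje cells, gave low signals. These were 215.5, 157.9 and 222.1 in CA1 and 271.4 and 205.3 in CbG, against 129.9 and 120.1 in CA3 and 191.3, 128.3 and 9.3 in CTX. The arrays labelled CbG replicate 3 and CA3 replicate 3 gave 164.8 and 169.8. Signals were thus higher in most VUL arrays, and CTX replicate 3 stood far below the rest. VUL minus RES was 1.34 ± 0.71 and did not pass in limma (adjusted p = 0.34). The exact two-sided permutation within rats gave p = 0.019 as labelled and 0.0093 exchanged, the second being the smallest that 216 arrangements can give, without adjustment for the 11 probe sets examined. Without CTX replicate 3, which also takes CA1 replicate 3 out of the comparison within rats, the difference was 0.59 ± 0.18 (adjusted p = 0.20). The Purkinje cell markers were high in both CbG arrays, with a sum of 15789 where *Rgs8* read 271.4 and of 37256 where it read 205.3. In the array labelled CA3 replicate 3 the sum was 2607, with *Rgs8* at 169.8. The part of Purkinje cells was not tested.

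Of the R7 group, *Rgs7* was well above the array median in all 12 arrays. It gave 3262.6, 3186.1 and 2935.4 in CA1 and 3617.9 and 4326.2 in CbG, against 3137.1 and 2859.4 in CA3 and 2786.7, 3002.1 and 2513.9 in CTX. The array labelled CA3 replicate 3 was the highest of all at 4730.2 and that labelled CbG replicate 3 gave 2849.6. Both CbG arrays lay above every CTX array, while CA1, CA3 and CTX overlapped. CbG minus CTX was 0.60 ± 0.22 and fell just short over the 10 arrays (adjusted p = 0.061). With the labels exchanged it was 0.79 ± 0.19 and called (adjusted p = 0.0066), and as labelled 0.53 ± 0.24 and not called (adjusted p = 0.34). Leaving out CbG replicate 1 also brought a call, at 0.80 (adjusted p = 0.041).

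VUL minus RES of *Rgs7* was 0.33 ± 0.15 (adjusted p = 0.12), and 0.43 ± 0.14 with the labels exchanged, which passed the test (adjusted p = 0.03) but not the 1.5-fold threshold. The exact within-rat permutation gave p = 0.028 for the exchanged arrays and 0.48 as labelled. In CA1 minus CTX the difference of 0.49 ± 0.19 did not pass (adjusted p = 0.055). Without centring, differences between CA1 and CTX are lower by 0.31 for every probe set, and *Rgs7* then differed by 0.18. Its obligate partner *Gnb5* gave between 3423.9 and 5338.5 over the 12 arrays and was not called for VUL minus RES (0.24 ± 0.16, adjusted p = 0.28). In CA1 minus CTX *Gnb5* was called at 0.67 ± 0.20 (adjusted p = 0.02).

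*Rgs9*, whose splice forms serve the striatum and the retina, had low signals. These were 154.1, 145.6 and 135.4 in CA1, 210.1 and 273.6 in CbG, 98.7 and 146 in CA3 and 198.8, 268.8 and 251.8 in CTX. The array labelled CA3 replicate 3 gave 272.9, like CbG, and that labelled CbG replicate 3 gave 193.8. CbG and CTX thus lay above CA1 and CA3, a cerebellar and cortical order that crosses the VUL and RES groups. Over the 10 arrays the probe set did not pass the filter, and in the unfiltered fit CA1 minus CbG was -0.55 ± 0.26 (adjusted p = 0.23) and CA3 minus CbG -0.77 ± 0.27 (adjusted p = 0.12). With the labels exchanged it passed the filter and both were called, at -0.66 ± 0.21 (adjusted p = 0.019) and -0.69 ± 0.21 (adjusted p = 0.013). The unfiltered fit of the exchanged arrays called neither (adjusted p = 0.076 and 0.061). As labelled neither was called, at adjusted p = 0.40 and 0.80.

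In the R12 group, *Rgs14* separated the regions more than any other member. *Rgs14* encodes a scaffold with an RGS domain, Ras-binding domains and a GoLoco motif that binds inactive Gi alpha subunits, and in mice it is known for high levels in hippocampal CA2 neurons. It gave 1285.8, 1539.3 and 1396.7 in CA1 and 8.5 and 6.5 in CbG, against 1749.2 and 1745.8 in CA3 and 311.7, 356.3 and 355.3 in CTX. The array labelled CbG replicate 3 gave 1935.6, above all others, and that labelled CA3 replicate 3 gave 27.9. Both hippocampal fields were high, the cortex intermediate and the CbG arrays close to 0, with no overlap between these 3 levels over the 10 arrays. The mean was 1407 ± 127 in CA1 and 341 ± 25.5 in CTX (SD, n = 3 each).

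All contrasts of *Rgs14* but CA1 minus CA3 were called over the 10 arrays. CA1 minus CbG was 7.72 ± 0.21 (adjusted p = 4.6e-10) and CA3 minus CbG 8.11 ± 0.22 (adjusted p = 8.7e-10). CbG minus CTX was -5.37 ± 0.21 (adjusted p = 1.8e-08), whereas CA1 minus CTX was 2.36 ± 0.18 (5.13-fold higher, adjusted p = 4.7e-06) and CA3 minus CTX 2.74 ± 0.21 (6.68-fold higher, adjusted p = 1.3e-05). The 2 hippocampal fields differed by -0.38 ± 0.21 for CA1 minus CA3, which did not pass (adjusted p = 0.31). Signals as low as those in CbG are imprecise, and the sizes against CbG depend on them. With 50 added to each signal before log2, CA3 minus CbG was 5.14 and CbG minus CTX -2.64, and both were still called.

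VUL minus RES of *Rgs14* was -2.87 ± 0.14 (adjusted p = 2.4e-07) and -2.54 ± 0.25 with the labels exchanged (adjusted p = 1.2e-05). All 4 within-rat pairs of the 10 arrays, and all 6 with the labels exchanged, were lower in VUL. The methods' paired test over these pairs, which takes both kinds of pair as alike, did not pass (adjusted p = 0.47 over the 10 arrays and 0.22 exchanged). After adjustment that test called 0 of all 7451 probe sets over the 10 arrays, and 194 of 7520 exchanged. The difference between the pairs was 4.99 ± 0.32 (adjusted p = 1.6e-06). With 50 added to each signal VUL minus RES was -1.5 and the difference between the pairs 2.29, and both were called. As labelled the gene was called in 0 of 8 contrasts, with VUL minus RES at -0.51 ± 1.60 (adjusted p = 0.96), with 1935.6 counted as CbG and 27.9 as CA3. CA1 minus CA3 was then 1.65 ± 2.27, against -0.38 ± 0.36 exchanged (adjusted p = 0.86 and 0.55). The exact permutation within rats, which again sets CA1 and CbG as alike, gave p = 0.83 as labelled and 0.20 exchanged.

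Markers of CA2 neurons were mixed in their regional order. The 4 on the array summed to between 1735 and 2298 in CA1, 5034 and 17150 in CbG, 8962 and 8994 in CA3 and 9949 and 13273 in CTX, mostly through *Pcp4* outside CA1. *Necab2*, like *Rgs14*, was high in both hippocampal fields, lower in CTX and lowest in CbG, with 1653.8, 1227.2 and 1907.7 in CA1 and 103.7 and 103.8 in CbG, against 1626 and 1589.1 in CA3 and 295.4, 210.6 and 278.6 in CTX. It gave 1201.1 in the array labelled CbG replicate 3 and 57.9 in that labelled CA3 replicate 3. *Amigo2* gave between 290.9 and 397.8 in CA1 and 1724.6 and 1509.6 in CA3, and *Cacng5* did not exceed 62.7 in any array. Their part in the *Rgs14* signal was not tested.

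*Rgs10* encodes a short protein that is known from microglia as well as neurons. It gave 507.5, 690.7 and 618.3 in CA1, 541 and 1018.5 in CbG, 675.4 and 501.2 in CA3 and 1171.9, 1164.6 and 1518.8 in CTX. Of the 2 doubtful arrays, that labelled CbG gave 580.2 and that labelled CA3 gave 491.7. Every CTX array was above all the others, with CbG replicate 2 the nearest. CA1 minus CTX was called at -0.77 ± 0.24 (1.71-fold lower, adjusted p = 0.027), and with the labels exchanged CbG minus CTX at -0.80 ± 0.25 and CA3 minus CTX at -0.81 ± 0.25 were called too (adjusted p = 0.024 and 0.021), though not in the unfiltered fit of the same arrays (adjusted p = 0.12 and 0.11).

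Over the 10 arrays CbG minus CTX of *Rgs10* was -0.57 ± 0.29 (adjusted p = 0.16) and CA3 minus CTX -0.69 ± 0.29 (adjusted p = 0.079). The call in CA1 minus CTX was lost as labelled (adjusted p = 0.13), without the filter (adjusted p = 0.17), with the filter at 2 arrays or more (adjusted p = 0.053), and without CA1 replicate 1, 2 or 3 or CTX replicate 1 or 3, at -0.69 to -0.83. Without CbG replicate 2, CbG minus CTX was -1.09 and called. Without CbG replicate 1 it was -0.05. CA3 minus CTX was called at -1.11 without CA3 replicate 1 and at -0.69 without either CbG array, and was -0.27 without CA3 replicate 2. It was also called with no centring (-1.06, adjusted p = 0.026), after quantile normalization and with 50 added to each signal. VUL minus RES was -0.32 ± 0.19 (adjusted p = 0.25). The 3 microglial markers summed to between 184.3 and 355.4 in CA1, 404.4 and 433.4 in CbG, 246 and 338.1 in CA3 and 407.9 and 651.4 in CTX. Their part was not tested.

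*Rgs12* encodes the largest protein of the group, with PDZ and GoLoco domains, and was highest in CA1. It gave 625.3, 305.3 and 296.2 in CA1 and 72 and 106.5 in CbG, against 140.1 and 64.6 in CA3 and 230.4, 92.6 and 216.7 in CTX. The arrays labelled CbG replicate 3 and CA3 replicate 3 gave 83.2 and 37.9. All CA1 arrays lay above all 9 arrays of the other regions. CA1 minus CbG was 2.31 ± 0.53 and its only call over the 10 arrays in the unfiltered fit (4.95-fold higher, adjusted p = 0.042). CA1 minus CA3 was 1.96 ± 0.53 (adjusted p = 0.19) and CA1 minus CTX 1.52 ± 0.45 (adjusted p = 0.099), with adjusted p = 0.036 and 0.02 when probe sets above the median in at least 2 arrays were tested. CA1 minus CbG with the labels exchanged was 2.67 ± 0.44 (adjusted p = 0.0044). It lost its call as labelled (2.30, adjusted p = 0.15) and on leaving out any 1 of 9 arrays, at adjusted p between 0.056 and 0.15, but not without CbG replicate 2. Without CbG replicate 1 it was 1.39. VUL minus RES was 0.59 ± 0.36 (adjusted p = 0.41).

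**Figure D2:**
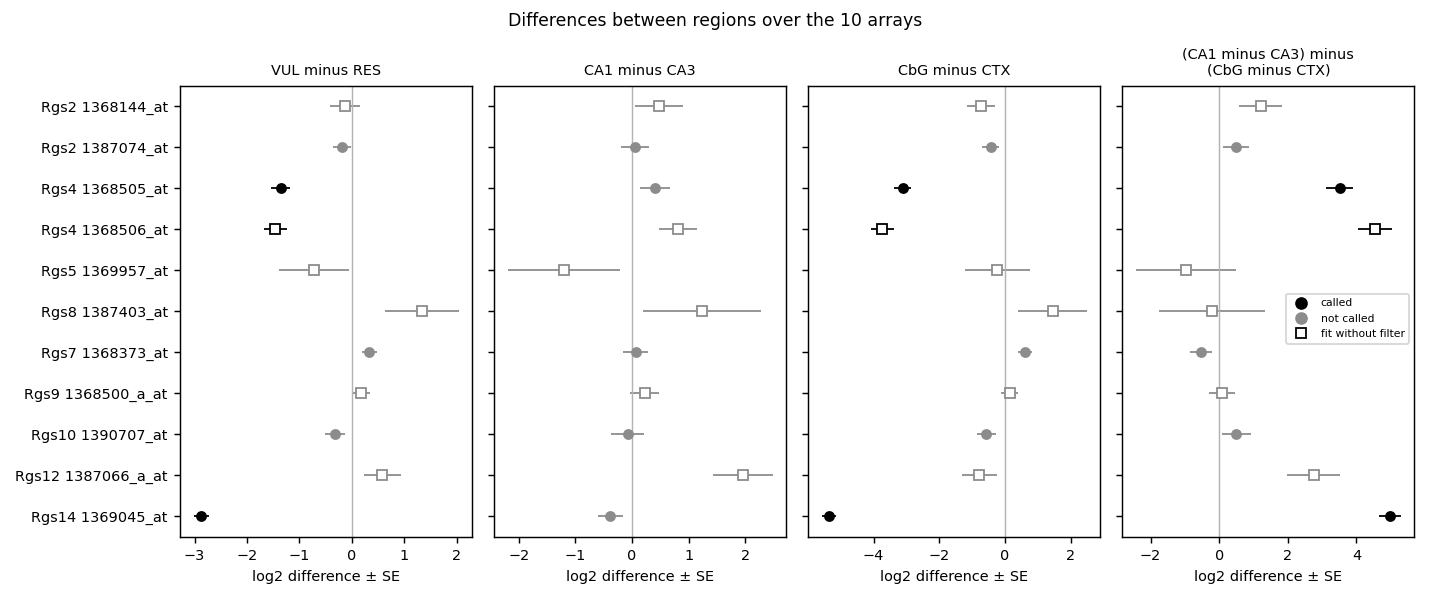
Log2 differences with their standard errors over the 10 arrays, for VUL minus RES, both hippocampal fields (CA1 minus CA3), CbG minus CTX, and how far these pairs differed. Black marks were called and grey ones were not, and open squares are probe sets tested without the filter. *Rgs4* and *Rgs14* lie left of 0 in VUL minus RES and CbG minus CTX and closer to 0 in CA1 minus CA3.

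Counted over the members, VUL minus RES called 2 of 5 tested probe sets (*Rgs4* and *Rgs14*, both lower in VUL), beside 17.8% of all 7451 tested, or 9.22% in the lower direction. The members' median was -0.32 and that of all probe sets 0.04. Without the filter 3 of 11 were called, beside 3.11% of 15866. As labelled 0 of 6 were called, beside 0% of 7520, with 1 member at an unadjusted p under 0.05 in limma. With the labels exchanged 2 of 6 were called, beside 18.4%. The methods' paired test called 0 members at its own unadjusted threshold under each of the 3 arrangements. Of all probe sets it called 599 of 7451 over the 10 arrays, 198 of 7520 as labelled and 907 of 7520 exchanged.

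CA1 minus CA3 called 0 of 5 in limma, with 0 at an unadjusted p under 0.05, beside 10.5% of all. It called 0 of 6 as labelled (1.33% of all) and exchanged (13.5%), and 0 of 11 without the filter (0.271%). CbG minus CTX called 2 of 5, beside 26.2%. It called 1 of 6 as labelled (0.625%), 4 of 6 exchanged (33.9%) and 3 of 11 without the filter (4.37%). The difference between these pairs called 2 of 5, beside 14.9%, 1 of 6 as labelled (2.07%), 2 of 6 exchanged (24.1%) and 3 of 11 without the filter (2.4%).

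Against CTX, CA1 called 3 of 5 members, beside 34.3%, and CA3 2 of 5, beside 33.8%. As labelled the calls were 1 of 6 in each (6.38% and 1.93%), and *Rgs4* was that call, as it was in CbG minus CTX. With the labels exchanged they were 3 of 6 in each (33.8% and 36.1%), and without the filter 3 of 11 in each (7.13% and 2.94%). CA1 minus CbG called 1 of 5, beside 39.1%, and CA3 minus CbG 1 of 5, beside 43.1%, in both cases *Rgs14*. As labelled 0 of 6 were called in either (1.24% and 0%), with 0 at an unadjusted p under 0.05 in limma. With the labels exchanged 2 of 6 were called in each (40.6% and 45.5%), and without the filter 2 and 1 of 11 (12.8% and 13.7%). The contrasts share arrays, so that 1 high region enters several of them.

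**Figure D3:**
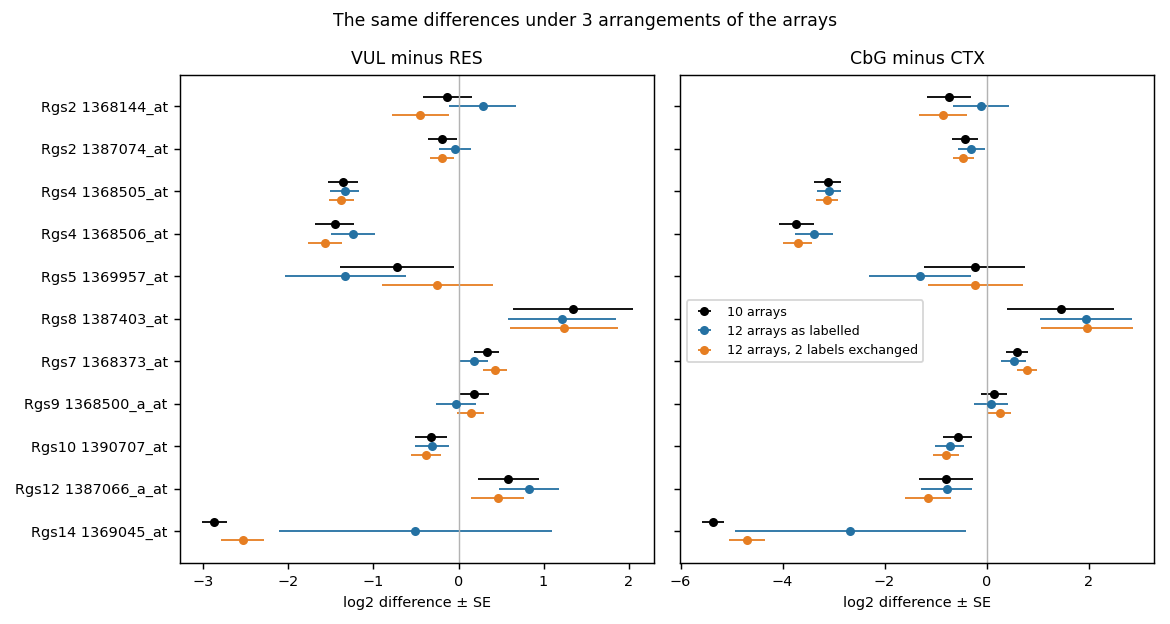
Log2 differences with their standard errors for VUL minus RES and CbG minus CTX under 3 arrangements, for the 10 arrays (black), the 12 as labelled (blue) and the 12 with the 2 labels exchanged (orange), probe sets past the filter from the filtered fit and the others from the unfiltered one. *Rgs4* hardly moved, at -3.11, -3.09 and -3.13 for CbG minus CTX, while *Rgs14* had a standard error of 2.27 as labelled.

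Other genes of the pathway were counted from lists by family. Of 13 alpha subunit probe sets 6 were tested, and 2 were called for VUL minus RES, both lower, beside 17.8% of all tested (9.22% lower). *Gnaz*, the pertussis toxin-insensitive Gi family member, differed by -0.80 ± 0.18 (adjusted p = 0.0066) and *Gna12*, of another alpha subunit family, by -0.78 ± 0.16 (adjusted p = 0.0043). *Gnaz* gave 698.4, 855.6 and 940 in CA1 and 195.3 and 337.8 in CbG, against 839.2 and 905.2 in CA3 and 773.4, 888.3 and 696.7 in CTX, so that both CbG arrays lay below all others. *Gna12* gave 691.9, 431.6 and 697.1 in CA1 and 870 and 759 in CbG, against 1050.6 and 926.5 in CA3 and 1399, 1372 and 1823.3 in CTX. All 5 VUL arrays were below all 5 RES arrays. Of the 2 doubtful arrays, that labelled CbG gave 874.6 and that labelled CA3 gave 332.3 for *Gnaz*, and 1149.5 and 943.5 for *Gna12*. The median of the 6 was -0.40, beside 0.04 for all probe sets tested. As labelled 0 of the 6 were called for VUL minus RES, beside 0% of all, with a median of -0.13. Exchanged 2 were called, both lower, beside 18.4% of all (8.3% lower). Of 8 beta and gamma subunit probe sets tested, and of 4 for partners and effectors, 0 were called in either direction, with medians of -0.17 and 0.05. Among the latter, *Plcb1* at -0.49 ± 0.15 (limma adjusted p = 0.035) and *Kcnj6* at 0.48 ± 0.16 (adjusted p = 0.046) passed the test but not the 1.5-fold threshold.

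The only other RGS gene tested was *Rgs3*, a regulator of Gi and Gq, which was highest in CbG and low in both hippocampal fields. It gave 159, 169.4 and 91 in CA1 and 774.5 and 1005 in CbG, against 189.4 and 208.4 in CA3 and 449.7, 570.8 and 595.9 in CTX. The arrays labelled CbG replicate 3 and CA3 replicate 3 gave 153 and 751.7. CbG minus CTX was 0.76 ± 0.26 (adjusted p = 0.048) and VUL minus RES 0.12 ± 0.17 (adjusted p = 0.65). As labelled the first was 0.05 and not called and the second was -0.58, and exchanged they were 0.83, which was called, and 0.19. A pair of effectors, singled out with *Rgs3* and *Gnb5* after their values had been seen, were *Plcb1*, the phospholipase C activated by Gq, and *Kcnj6*, a potassium channel opened by beta-gamma subunits. *Plcb1* differed by -1.31 ± 0.22 in CbG minus CTX (adjusted p = 0.0013) and *Kcnj6* by 0.74 ± 0.24 (adjusted p = 0.037). As labelled 0 of the 5 tested probe sets of partners and effectors were called in this contrast, beside 0.625% of all. *Plcb4*, shown beside them, gave 3779.8 and 3960 in CbG, with 3445.8 in the doubtful CA3 array, against 153 or less in the hippocampal arrays.

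**Figure D4:**
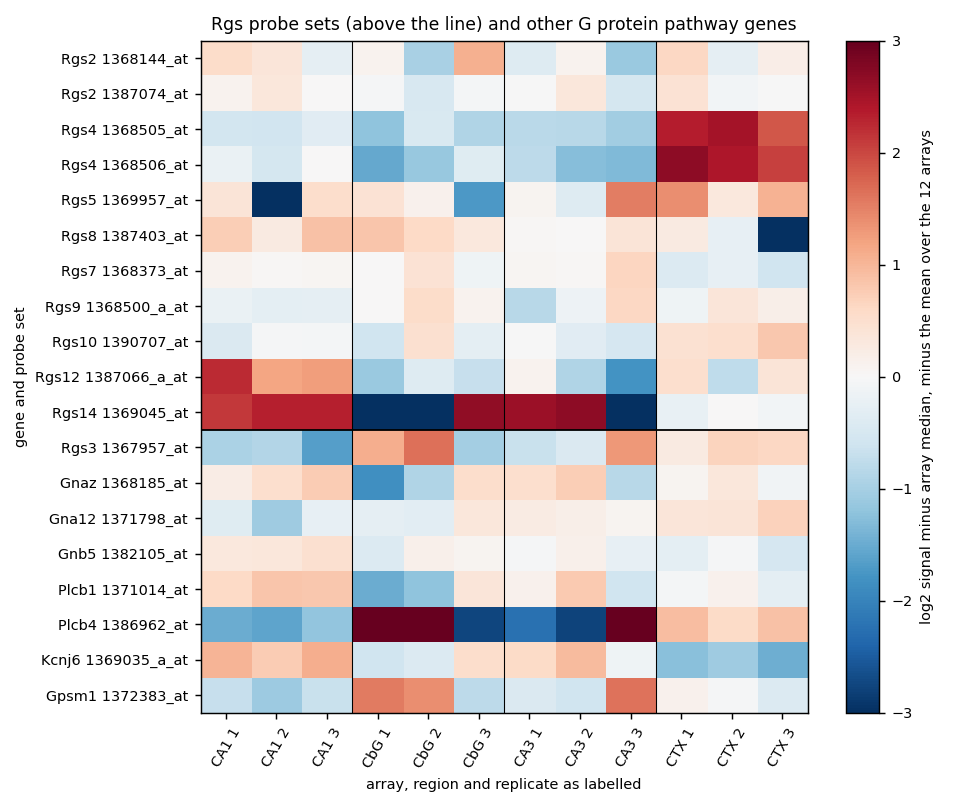
Log2 signal minus the array median, centred on each probe set's mean over the 12 arrays, for the members (above the line) and other genes of G protein signaling, with colours saturated at -3 and 3. Columns are arrays as labelled, CA1 and CbG left of CA3 and CTX. *Rgs14* is low in CbG 1, CbG 2 and the column of CA3 3, where *Rgs3* and *Plcb4* are high.

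The probe sets most like the members in pattern were found by Pearson's r of the log2 signals over the 12 arrays, a description in which arrays of a region share their level. For *Rgs14* they were *Epha5* (r = 0.99), an ephrin receptor, *Arf3* (0.99), a small GTPase of the Golgi, and *Htatip2* (0.98). *Epha5* gave 99.3 and 69.1 in CbG, with 155.9 in the doubtful CA3 array, and at least 574.4 elsewhere. For *Rgs4* they were *Dusp26* (0.94), *Rcan2* (0.94), a calcineurin regulator, and *Arpp21* (0.94) with 1368505_at, and 2 probe sets of *Arpp21* (0.94 and 0.92) and *Stxbp6* (0.91) with 1368506_at. *Arpp21* (1373257_at), a cAMP-regulated phosphoprotein, gave 926.2, 915.4 and 1091.8 in CTX, and between 120.2 and 363.6 in all other arrays. *Rgs5* was closest to *Pik3ca* (0.84), *Epas1* (0.82), a hypoxia factor of endothelium, and *Csrp1* (0.82). Its signals were near the floor, with no array above its median, so these r values rest on imprecise readings. Among the members themselves, *Rgs10* and *Rgs4* 1368505_at had the highest r between genes (0.81), and *Rgs4* 1368506_at and *Rgs7* the lowest (-0.79).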

How the data were processed

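RNA of 12 captures, from 4 regions with 3 replicates each, was measured on Affymetrix RAE230A arrays. The authors deposited linear MAS5 intensities (signal), scaled by array, per the submitters' processing notes and the paper's methods; after removal of 2% at each end the mean was near 500.1 in every array. The methods name GeneChip Operating Software as the program that made the signals. Detection calls were not used here.

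Members and lists were chosen with earlier results of these data known, and the 2 doubtful arrays had been noticed then. Probe sets were named from a platform gene table, and those with several symbols were left out. The 57 controls were removed, and 0 columns were without a sample. Each log2 signal was set against its array's median, and limma 3.58.1 (R 4.3.3) fitted the 4 regions plus a block for rats. Arrays were paired by replicate number because the methods describe all 4 populations as taken from each animal. Neither labels nor methods say that equal numbers mean the same animal, so the pairing is an assumption. Deviations from the region means correlated at 0.0404 on average between arrays of the same number (13 pairs, 10 arrays), and at -0.0219 between those of different number. In the block fit the 2 remaining arrays of rat 3 can change only the estimates of contrasts that hold CA1 or CTX. They also enter the estimate of the spread, which all contrasts share. The limma p-values rest on the spread left after region and block, pooled over the 4 regions and moderated over all probe sets in the fit. In the main fit CbG and CA3 had only 2 arrays each. The paired t-test after the methods and the exact permutation were alternatives, with those listed in the closing section. Combinations of a second choice with no filter were added after seeing the data.

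Named genes are all members, up to 4 called probe sets of a list for VUL minus RES, and the 3 probe sets most like each of the 4 member probe sets of largest SD. Exceptions are stated. In data simulated for CA1 minus CA3 over 10 arrays (7451 probe sets), 8 of 67 changes of 1.5-fold, 45 of 67 of 2-fold and 66 of 66 of 3-fold were called, with 5 of 7251 unchanged ones. The simulated noise was normal and independent, without a rat effect, and changes were placed in CA1 only. A smaller share of probe sets was changed than the 10.5% called in the data. These rates therefore need not hold for the tests above. The number of arrays limits the precision. The log2 ratio of 3' to 5' actin signal was 6.52 in CbG replicate 2, against 3.88 in CbG replicate 1 and 3.85 to 5.35 in all other arrays. For GAPDH the ratio of CbG replicate 2 was 2.31, within the 1.31 to 2.76 of the other arrays. The part of RNA quality in the CbG differences was not tested. Python 3.11.15 and matplotlib 3.10.9 drew the figures.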

Additional observations from a re-analysis of the deposited data

Results flagged for a closer look

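The CA1 minus CA3 and CbG minus CTX differences were unlike for 2 genes, by the test of the difference between them over the 10 arrays. It was 4.99 for *Rgs14* (limma adjusted p = 1.6e-06), where CbG was far lower than CTX and CA1 close to CA3. For *Rgs4* it was 3.51 with 1368505_at (adjusted p = 9.2e-05) and 4.54 with 1368506_at (adjusted p = 0.019, without the filter), where CTX alone was high. As labelled, the *Rgs14* value was 4.32 and did not pass (adjusted p = 0.52), and with 50 added to each signal it was 2.29 and passed (adjusted p = 4.9e-05).

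A single array stood apart in 1 of 22 groups examined. The *Rgs8* signal of 9.3 in CTX replicate 3 was separated from the other RES arrays by a gap of 0.858 of their whole range on the log2 scale. The limit used for such a gap is one that chance passes in about 1 group in 20.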

How the results depend on the processing

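The counts of called members moved with the array labels and with the filter. As labelled they were 0 for VUL minus RES, 1 for CbG minus CTX, 1 for CA1 minus CTX, 1 for CA3 minus CTX, 0 for CA1 minus CbG, 0 for CA3 minus CbG and 1 for the difference between pairs. With the labels exchanged CbG minus CTX had 4, CA1 minus CbG 2 and CA3 minus CbG 2. Without the filter CA1 minus CbG had 2. With probe sets above the median in at least 2 arrays, CA1 minus CA3 had 1, CA1 minus CbG 3, CA3 minus CbG 2 and the difference between pairs 4. For limma, the share of all probe sets called was counted only for the 3 arrangements and without the filter. The limma counts of members under the other settings of this section thus have no share to be set beside. The paired t-test after the methods, over the 10 arrays, called 0 members before adjustment, beside 599 of 7451 probe sets. After adjustment it called 0 members, beside 0 of 7451. Quantile normalization, no centring, log2(signal + 50) and a prior trend left all 8 counts within 1.5 times.

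Leaving out each array gave 2 to 2 for VUL minus RES, 0 to 0 for CA1 minus CA3, 2 to 3 for CbG minus CTX, CA1 minus CTX and CA3 minus CTX, 1 to 2 for CA1 minus CbG and CA3 minus CbG and 2 to 2 for the difference between pairs. CA1 minus CbG had 2 without CA1 replicate 1, and CA3 minus CbG 2 without any 1 CA1 array. Leaving out 1 of the 2 arrays of rat 3 removes the other from the block fit too.

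With no replicate block, VUL minus RES again had 2, CA1 minus CA3 0, CbG minus CTX 3, CA1 minus CTX 3, CA3 minus CTX 3, CA1 minus CbG 1, CA3 minus CbG 1 and the difference between pairs 2. *Rgs7* was then called in CbG minus CTX at 0.65 (adjusted p = 0.031) and *Rgs10* in CA3 minus CTX at -0.77 (adjusted p = 0.049).

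The *Rgs14* difference CA1 minus CA3 turned direction as labelled, to 1.65. Of 673 single values recomputed, 590 kept direction and side of the threshold, 58 lost the call and 24 gained it. Causes were not tested. Low signals, as in *Rgs5*, *Rgs8* and the CbG arrays of *Rgs14*, limit the precision of their differences.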
